A study of Mus musculus with 8 samples.

Results

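The 8 genes followed here encode the oxygen-sensing machinery of 32D cells, a murine myeloid line that grows with interleukin-3 (IL-3). They are the HIF subunit genes Hif1a, Epas1 and Arnt, the ubiquitin ligase gene Vhl, the prolyl hydroxylase genes Egln1, Egln2 and Egln3, and the asparaginyl hydroxylase gene Hif1an. These 8 genes were taken by symbol from the 56748 genes of the deposited expression table, and all 8 were found on a single row each. Polyadenylated RNA had been sequenced from 8 libraries in 4 groups of 2 single-cell clones. The groups were Jak2WT GLUT1/3 WT, Jak2WT GLUT1/3 dKO, Jak2V617F GLUT1/3 WT and Jak2V617F GLUT1/3 dKO, where dKO denotes the CRISPR-Cas9 knockout of both Slc2a1 (GLUT1) and Slc2a3 (GLUT3). All 4 groups had been transduced with mouse Jak2, as wild type or V617F. Before harvest all groups spent 24 h in medium that held 2 ng/ml IL-3, 1 mM glutamine and 5 mM glucose. The clones of a group carry the numbers 1 and 3. The knockout clones listed for a background share the same GLUT1 deletion, so they may not be independent editing events. The P-values below measure the spread between these clones, to which the permutation tests add the difference between pooled groups.

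The hypoxia-inducible factors are dimers of an oxygen-regulated α subunit, HIF-1α (Hif1a) or HIF-2α (Epas1), and the constitutive partner ARNT, also called HIF-1β. In the presence of oxygen, the prolyl hydroxylases PHD2 (Egln1), PHD1 (Egln2) and PHD3 (Egln3) modify the α subunit, which is then bound by pVHL (Vhl) and degraded, while FIH (Hif1an) hydroxylates an asparagine that is needed for the contact with coactivators. These hydroxylases consume oxygen and 2-oxoglutarate, and Egln1 and Egln3 are themselves known HIF target genes. Oxygen sensing acts mainly on the HIF-α protein, which RNA sequencing does not measure, so all values below are mRNA levels.

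The promoters of Egln1, Egln2, Hif1a, Arnt and Vhl are shown because Egln1, Hif1a, Arnt and Vhl were lower in Jak2V617F GLUT1/3 dKO clones, whereas Egln2, the paralogue of Egln1, was not. The sequences are from RefSeq, whose table is in build GRCm38.p6, and each was found at a single place in GRCm39, whose coordinates are given. They run 5′ to 3′ on the strand of the gene. Those of Egln1, Arnt and Vhl end where the gene starts in the deposited table, a few to 70 bases before the RefSeq start, and those of Egln2 and Hif1a end at the RefSeq start. For Hif1a, that start lies 6492 bases downstream of the start in the deposited table, so its window lies wholly inside the gene as the table draws it. Capitals mark ACGTG or GCGTG on either strand, the core letters of the hypoxia response element.
Egln1 (chr8:125676064-125676243, minus strand): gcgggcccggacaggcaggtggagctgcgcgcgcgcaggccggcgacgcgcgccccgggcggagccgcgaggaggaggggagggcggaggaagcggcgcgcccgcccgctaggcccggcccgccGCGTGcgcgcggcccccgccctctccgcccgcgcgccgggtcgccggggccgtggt
Egln2 (chr7:26866228-26866477, minus strand): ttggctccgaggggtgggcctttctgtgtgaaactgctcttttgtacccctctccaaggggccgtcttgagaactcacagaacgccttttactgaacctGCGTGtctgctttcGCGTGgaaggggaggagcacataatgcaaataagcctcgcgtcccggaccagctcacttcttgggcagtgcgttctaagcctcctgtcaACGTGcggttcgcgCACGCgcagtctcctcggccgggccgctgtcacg
Hif1a (chr12:73954391-73954640, plus strand): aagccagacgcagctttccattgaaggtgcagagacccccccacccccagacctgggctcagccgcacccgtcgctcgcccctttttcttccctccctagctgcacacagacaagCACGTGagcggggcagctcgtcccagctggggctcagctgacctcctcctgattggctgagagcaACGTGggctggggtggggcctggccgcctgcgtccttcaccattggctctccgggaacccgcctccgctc
Arnt (chr3:95341451-95341698, plus strand): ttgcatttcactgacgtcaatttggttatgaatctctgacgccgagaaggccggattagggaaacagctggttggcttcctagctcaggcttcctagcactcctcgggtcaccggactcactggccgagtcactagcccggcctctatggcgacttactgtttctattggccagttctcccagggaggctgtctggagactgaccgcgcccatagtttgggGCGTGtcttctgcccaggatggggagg
Vhl (chr6:113600705-113600919, plus strand): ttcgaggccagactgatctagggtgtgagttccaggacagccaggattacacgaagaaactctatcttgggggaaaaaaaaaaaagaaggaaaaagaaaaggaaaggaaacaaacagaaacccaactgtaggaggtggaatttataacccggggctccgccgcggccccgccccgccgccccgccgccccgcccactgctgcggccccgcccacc

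In the full 250 bases before the RefSeq start, Egln1 held 2 matches, a GCGTG at position −126 and an ACGTG at position −68 from the start. The second lies inside the gene as the deposited table draws it and is not printed. Egln2 held 4 matches in the window shown and 1 in the window of a second RefSeq start. Hif1a held 3, since the palindrome CACGTG contains ACGTG on both strands and counts as 2, Arnt held 1 and Egln3 held 1. No match was found in the windows of Vhl and Hif1an, and Epas1 had no entry in the RefSeq table. Of 32851 windows of this length over all genes, 38.6% held at least 1 match, and among the 10327 windows of genes tested here 56.8% did. Of the genes that fell in Jak2V617F dKO, Egln1, Hif1a and Arnt held the motif and Vhl did not, while Egln2, which did not pass the test, held it. A match is only a description of the letters in the window.

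Reads on genes ranged from 16846011 to 48884329 per library, and 10773 to 11190 genes reached an FPKM of 1. FPKM, the fragments of a gene scaled by its length and by the depth of the library, allows levels of different genes to be compared. Slc2a1, targeted in the dKO clones, was at 44.7 and 48.4 FPKM in Jak2WT GLUT1/3 WT clones 1 and 3 and at 9.47 and 9.17 in the Jak2WT dKO clones. It was at 64.0 and 53.0 in Jak2V617F GLUT1/3 WT and at 17.3 and 12.7 in Jak2V617F dKO. Slc2a3 was 91.9 to 198 FPKM in the 4 GLUT1/3 WT clones and 16.0 to 49.5 in the 4 dKO clones. Jak2 was 218 to 258 FPKM in the Jak2WT libraries and 139 to 165 in the Jak2V617F libraries. Of the 11 myeloblast markers, Kit and Cebpa had 0 reads in every library, and Mpo, Elane, Ctsg and Cd34 stayed under 1 FPKM, while Csf2rb, a subunit of the IL-3 receptor, was 48.9 to 190 FPKM. Summed levels of the 14 erythroid markers were 282 to 301 FPKM in Jak2WT GLUT1/3 WT, 454 to 480 in Jak2WT GLUT1/3 dKO, 779 to 1143 in Jak2V617F GLUT1/3 WT and 2816 to 4974 in Jak2V617F GLUT1/3 dKO, with Alas2, Slc4a1 and Ermap under 1 FPKM in every library. Summed levels of the 11 myeloblast markers were, in the same order of groups, 219 to 247, 160 to 197, 196 to 201 and 89.1 to 92.0 FPKM, and those of 8 mature macrophage markers were 57.0 to 57.6, 64.5 to 73.0, 52.7 to 68.4 and 22.1 to 26.6. The summed erythroid level was thus highest and the summed myeloblast and macrophage levels lowest in Jak2V617F GLUT1/3 dKO, where Egln1, Hif1a and Arnt were lowest. Single genes made up much of these sums, such as Csf2rb and the macrophage marker Adgre1. In the erythroid sum, Tfrc was at 181 FPKM in Jak2WT GLUT1/3 WT, above Hba-a1 at 56.5, while Hbb-bs was at 1823 and Hba-a1 at 1500.0 in Jak2V617F dKO. Single markers also differed from the sums. The erythroid markers Gata1 (53.4 against 37.6 FPKM) and Rhag (133 against 93.3) were higher in Jak2V617F GLUT1/3 WT than in Jak2V617F dKO, Prtn3 and Il3ra were lowest in Jak2WT dKO and in Jak2WT GLUT1/3 WT, respectively, and Cd68 was lowest in Jak2V617F GLUT1/3 WT. Their part in the results below was not tested.

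Of the 8 genes, 6 were expressed and passed the filter of 1 FPKM in at least 2 libraries. Mean levels over all libraries were 40.1 FPKM for Egln1, 25.8 for Hif1a, 13.7 for Hif1an, 13.3 for Egln2, 10.9 for Vhl and 9.37 for Arnt. The remaining genes, Epas1 and Egln3, were not tested. Epas1 had 0 to 4 reads per library and 19 in all, with a 95% exact Poisson interval of 11.4 to 29.7, which covers counting error only. Hif1a had 37492 reads in all, and per base of transcript its level was 1871 times that of Epas1, with an interval of 1198 to 3107 from the Epas1 count. No read was found on Egln3 in any library, where a count of 0 allows up to 3 reads or 0.0229 to 0.0650 FPKM. Against this limit, Egln1 was at least 325-fold higher in every library and Egln2 at least 191-fold. HIF-α mRNA was therefore almost only Hif1a at this depth, and prolyl hydroxylase mRNA came from Egln1 and Egln2.

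The order of levels differed among the groups. In Jak2WT GLUT1/3 WT, Egln1 (48.6 ± 0.435 FPKM, SD, n = 2) was above Hif1a (27.4 ± 0.00176), followed by Hif1an (13.5 ± 0.0698), Vhl, Egln2 and Arnt (9.63 ± 0.717). In Jak2V617F GLUT1/3 WT, the first ranks were the same, with Egln1 at 66.0 ± 11.3 and Hif1a at 27.2 ± 1.12. In Jak2WT GLUT1/3 dKO, the clones of Egln1 (30.0 ± 3.31) and Hif1a (29.0 ± 1.48) overlapped. In Jak2V617F GLUT1/3 dKO, Hif1a (19.5 ± 0.784) ranked above Egln1 (15.8 ± 1.87), and Egln1 overlapped with Egln2 (13.7 ± 1.93), which overlapped with Hif1an (13.5 ± 1.77). Arnt had the lowest mean of the 6 in every group, although its clones overlapped with those of Vhl in Jak2V617F GLUT1/3 WT.

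**Figure D1:**
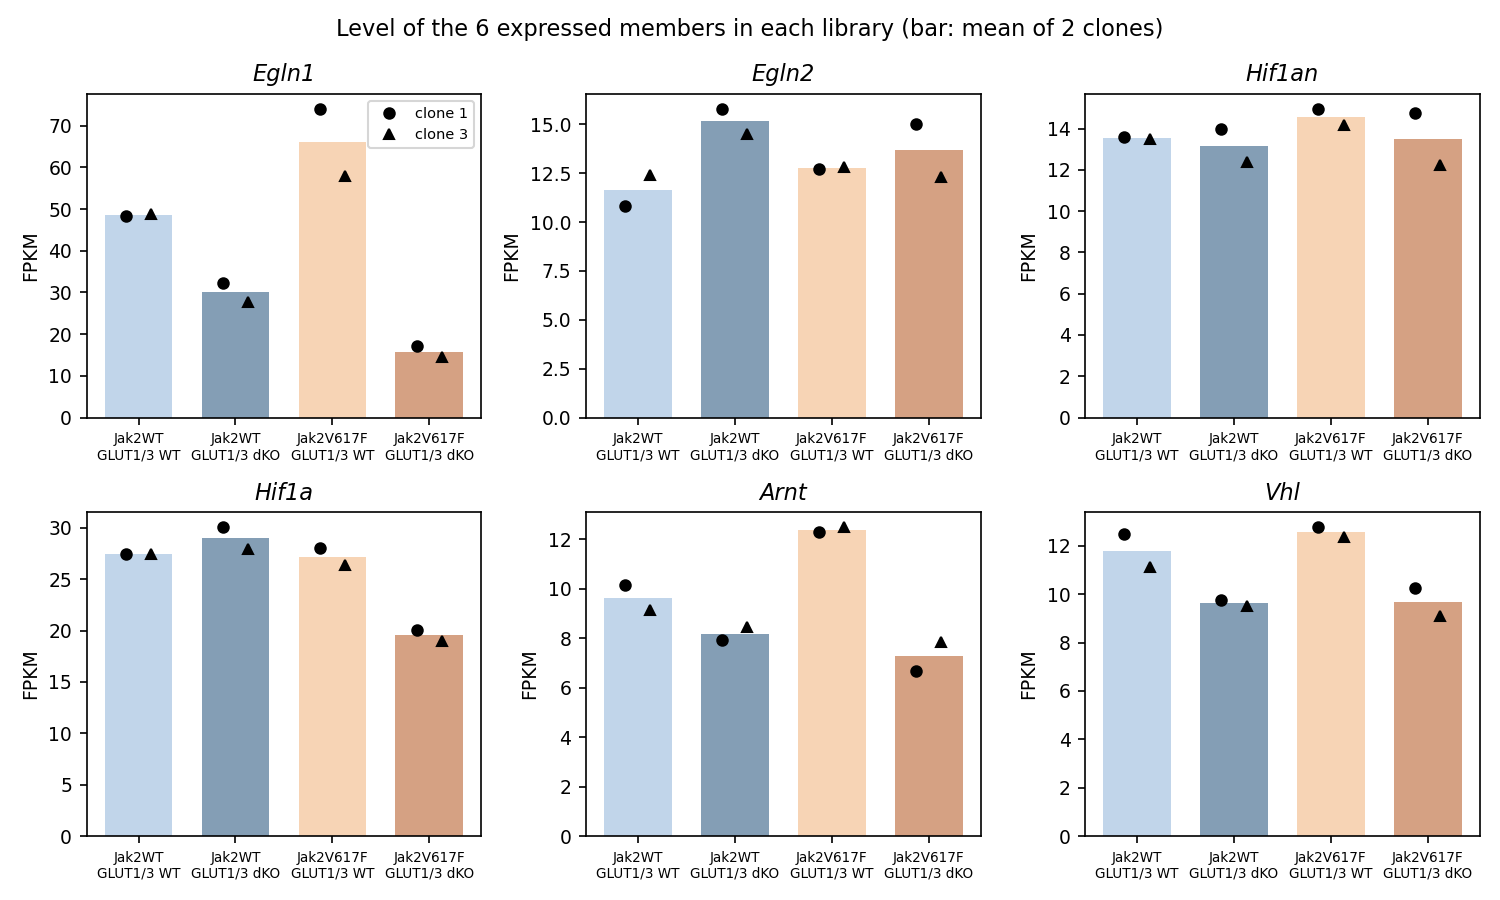
Level in FPKM (y axis, from 0) of the 6 expressed genes in each of the 8 libraries, by group; points are single clones and bars the mean of 2 clones. Egln1 ranged from 14.5 FPKM in a Jak2V617F dKO clone to 74.0 in a Jak2V617F GLUT1/3 WT clone, while Hif1an stayed between 12.2 and 14.9.

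Among the hydroxylases, Egln1 varied most. Egln1, chromosome 8 (GRCm39 chr8:125635326-125676063, minus strand), was at 48.3 and 48.9 FPKM in Jak2WT GLUT1/3 WT clones 1 and 3 and at 32.4 and 27.7 in the Jak2WT dKO clones. It was at 74.0 and 58.0 in Jak2V617F GLUT1/3 WT and at 17.2 and 14.5 in Jak2V617F dKO. Both dKO clones of each background were below both GLUT1/3 WT clones, and the lowest and the highest library of the series were both Jak2V617F. Egln1 fell by 1.99 on the log2 scale of FPKM + 1 in the Jak2V617F dKO clones (SE 0.14, 3.96-fold lower, limma adjusted p = 0.000383), which ranked 54 by size among 11818 genes tested. In Jak2WT it fell by 0.68 (SE 0.14, 1.60-fold lower, limma adjusted p = 0.0228). The fall was larger in Jak2V617F by 1.31 on the log2 scale (SE 0.20, 95% interval 0.84 to 1.77, interaction adjusted p = 0.0152 in limma), and accordingly Egln1 was lower in Jak2V617F than in Jak2WT among dKO clones (log2 difference −0.88, SE 0.14, limma adjusted p = 0.00709). Among GLUT1/3 WT clones it was higher in Jak2V617F by 0.42 (SE 0.14, limma adjusted p = 0.0557), which missed the threshold. In bulk RNA, fewer cells of a type and less RNA per cell cannot be told apart, for this gene as for the others.

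The fall of Egln1 in Jak2V617F held in every alternative fit, with log2 values from −2.16 to −1.81. In Jak2WT the call was lost without any 1 of the 4 Jak2WT libraries, with adjusted p of 0.120 and 0.118 without GLUT1/3 WT clones 1 and 3 and of 0.0737 and 0.119 without dKO clones 1 and 3. The interaction lost its call without Jak2WT GLUT1/3 WT clone 1 (adjusted p = 0.0623), Jak2WT GLUT1/3 WT clone 3 (0.0682) or Jak2WT dKO clone 1 (0.0646) in limma. The lower level in Jak2V617F among dKO clones lost it without Jak2WT dKO clone 1 (0.0574), and the higher level among GLUT1/3 WT clones passed without Jak2V617F GLUT1/3 WT clone 3 (0.0290).

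Egln2, chromosome 7 (GRCm39 chr7:26858083-26866227, minus strand), encodes the paralogous hydroxylase PHD1 and was at 10.8 and 12.4 FPKM in Jak2WT GLUT1/3 WT and at 15.8 and 14.5 in Jak2WT dKO. In Jak2V617F it was at 12.7 and 12.8 in GLUT1/3 WT and at 15.0 and 12.3 in dKO. The Jak2WT dKO clones were above the GLUT1/3 WT clones, while in Jak2V617F the groups overlapped. The log2 difference was 0.36 in Jak2WT (SE 0.11, limma adjusted p = 0.0763) and 0.08 in Jak2V617F (SE 0.11, 95% interval −0.18 to 0.35, limma adjusted p = 0.610). The Jak2WT value passed the threshold only in the fits without Jak2V617F dKO clone 1 (adjusted p = 0.0431) or clone 3 (0.0432).

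Hif1an, chromosome 19 (GRCm39 chr19:44551289-44564713, plus strand), encodes FIH and varied least, by 1.22-fold between its lowest and highest library. Its level was 13.6 and 13.5 FPKM in Jak2WT GLUT1/3 WT, 14.0 and 12.4 in Jak2WT dKO, 14.9 and 14.2 in Jak2V617F GLUT1/3 WT, and 14.7 and 12.2 in Jak2V617F dKO. The dKO and GLUT1/3 WT clones overlapped in both backgrounds. The log2 difference between them was −0.04 in Jak2WT (95% interval −0.28 to 0.21) and −0.11 in Jak2V617F (−0.35 to 0.14), and Hif1an passed the test in none of the 5 comparisons, in which it had limma adjusted p of 0.472 to 0.881.

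With Egln3 at 0 reads, the balance between prolyl hydroxylase genes is given by Egln1 and Egln2. Egln1 made up 81.7% and 79.7% of summed Egln1, Egln2 and Egln3 FPKM in Jak2WT GLUT1/3 WT and 85.3% and 81.9% in Jak2V617F GLUT1/3 WT. Its share was 67.2% and 65.6% in Jak2WT dKO and 53.3% and 54.1% in Jak2V617F dKO. All 4 dKO libraries were below all 4 GLUT1/3 WT libraries, and the mean share was 60.1% ± 7.36 (SD, n = 4) against 82.2% ± 2.32. The difference of 22.1 percentage points had a two-sided exact permutation p = 0.0286, the smallest that 4 against 4 libraries can give, and p = 0.114 after Benjamini-Hochberg adjustment over 4 share and ratio tests. The permutation did not keep the backgrounds apart, and each SD over 4 libraries includes the difference between backgrounds. Within backgrounds the mean share fell by 14.3 percentage points in Jak2WT and by 29.9 in Jak2V617F, where 2 against 2 clones cannot give an exact p below 0.33. Between Jak2V617F and Jak2WT libraries the share differed by −4.90 percentage points (exact permutation p = 0.657, adjusted p = 0.657). That value pools opposite directions, 2.90 percentage points among GLUT1/3 WT clones and −12.7 among dKO clones.

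Summed Egln1 and Egln2 mRNA was 60.2 ± 1.57 FPKM in Jak2WT GLUT1/3 WT and 45.2 ± 4.20 in Jak2WT dKO (SD, n = 2). It was 78.8 ± 11.2 in Jak2V617F GLUT1/3 WT and 29.5 ± 3.80 in Jak2V617F dKO. The sum was thus highest and lowest in the same background, and its range came from Egln1. Relative to Hif1a, Egln1 was 1.76 and 1.78 times as high in Jak2WT GLUT1/3 WT, 1.08 and 0.991 times in Jak2WT dKO, 2.64 and 2.20 times in Jak2V617F GLUT1/3 WT, and 0.855 and 0.766 times in Jak2V617F dKO. This ratio was chosen after the values had been seen and is given without a test. Ratio and share use 2 genes of the same library and do not depend on how libraries are scaled.

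**Figure D2:**
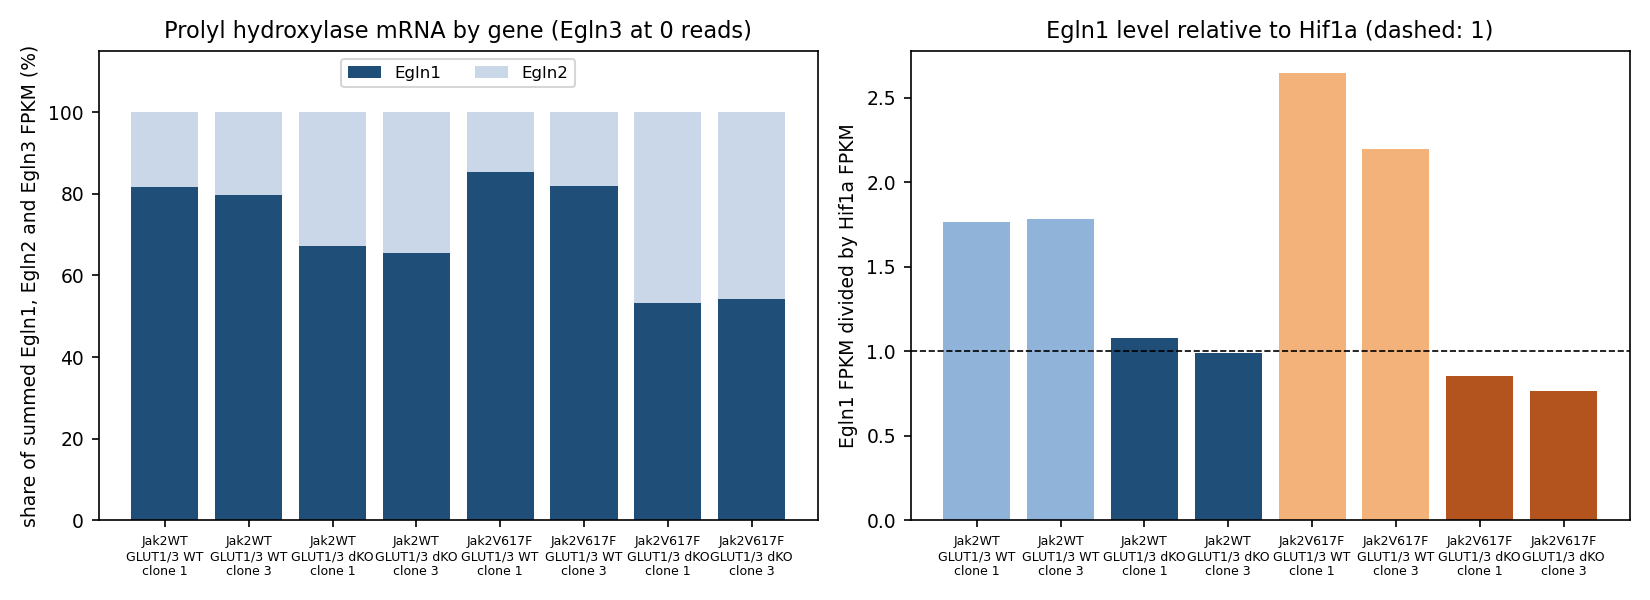
Left, share in percent of Egln1 and Egln2 in summed prolyl hydroxylase FPKM for each library; right, Egln1 FPKM divided by Hif1a FPKM for each library, with a dashed line at 1. The Egln1 share was 53.3% and 54.1% in the Jak2V617F dKO clones and 79.7% to 85.3% in the 4 GLUT1/3 WT clones.

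Of the subunits, Hif1a and Arnt fell in Jak2V617F GLUT1/3 dKO. Hif1a, chromosome 12 (GRCm39 chr12:73948149-73994304, plus strand), was at 27.4 FPKM in both Jak2WT GLUT1/3 WT clones and at 30.0 and 27.9 in the Jak2WT dKO clones. It was at 28.0 and 26.4 in Jak2V617F GLUT1/3 WT and at 20.1 and 19.0 in Jak2V617F dKO. The 6 other libraries lay between 26.4 and 30.0 FPKM, and the Jak2V617F dKO clones lay below them. Hif1a fell by 0.46 on the log2 scale in Jak2V617F dKO (SE 0.08, 1.37-fold lower, limma adjusted p = 0.00543), whereas in Jak2WT the difference was 0.08 (SE 0.08, 95% interval −0.11 to 0.26, limma adjusted p = 0.544). The dKO effects of both backgrounds differed by −0.54 (SE 0.11, interaction adjusted p = 0.0291 in limma). Among dKO clones Hif1a was lower in Jak2V617F by 0.55 on the log2 scale (95% interval 0.36 to 0.73, limma adjusted p = 0.00488), and among GLUT1/3 WT clones the difference was −0.01 (95% interval −0.19 to 0.17).

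The Hif1a call in Jak2V617F dKO held in every alternative, at log2 values from −0.50 to −0.37. The interaction call was lost without Jak2V617F GLUT1/3 WT clone 1 (limma adjusted p = 0.0759), Jak2WT GLUT1/3 WT clone 1 (0.109) or clone 3 (0.110), or Jak2WT dKO clone 1 (0.115) or clone 3 (0.0600). The long non-coding RNA gene Gm15283, which overlaps Hif1a on the other strand in the table, reached at most 0.368 FPKM, and since the strand setting of the counting is not given in the sources used here, its reads cannot be told apart from those of Hif1a. The other genes that overlap members were Snapc1l on Hif1a, also no higher than 0.368 FPKM, Gm50008 on Epas1, at 0 FPKM in every library, Cyp2t4 on Egln2, at most 0.384 FPKM, and the processed pseudogene Gm42672 on Arnt, at most 1.79 FPKM.

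Arnt, chromosome 3 (GRCm39 chr3:95341699-95404551, plus strand), was at 10.1 and 9.13 FPKM in Jak2WT GLUT1/3 WT and at 7.92 and 8.44 in Jak2WT dKO. It was at 12.3 and 12.5 in Jak2V617F GLUT1/3 WT, above every other library, and at 6.68 and 7.86 in Jak2V617F dKO, below every other library. Arnt fell by 0.70 on the log2 scale in Jak2V617F dKO (SE 0.10, 1.62-fold lower, limma adjusted p = 0.00258), and this held in every alternative, at −0.80 to −0.60. In Jak2WT the difference was −0.21 (SE 0.10, limma adjusted p = 0.182), and the interaction of −0.49 (SE 0.14) had a limma adjusted p = 0.0631, or 0.0384 without Jak2V617F dKO clone 3. Among GLUT1/3 WT clones, Arnt was higher in Jak2V617F by 0.33 (SE 0.10, limma adjusted p = 0.0368). This call was lost without either Jak2V617F GLUT1/3 WT clone (adjusted p = 0.104 and 0.112 without clones 1 and 3), either Jak2WT GLUT1/3 WT clone (0.0777 and 0.205) or either Jak2WT dKO clone (0.0592 and 0.0591).

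Within libraries, Hif1a was 2.70 and 3.00 times the level of Arnt in Jak2WT GLUT1/3 WT, 3.79 and 3.31 times in Jak2WT dKO, 2.27 and 2.12 times in Jak2V617F GLUT1/3 WT, and 3.01 and 2.41 times in Jak2V617F dKO. Hif1a mRNA exceeded that of its partner in all 8 libraries. The mean log2 ratio was higher by 0.31 in the dKO than in the GLUT1/3 WT libraries (two-sided exact permutation p = 0.143, adjusted p = 0.190, n = 4 and 4) and differed by −0.39 between Jak2V617F and Jak2WT (exact permutation p = 0.0857, adjusted p = 0.171). Within backgrounds the dKO difference was 0.31 in Jak2WT and 0.30 in Jak2V617F.

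Vhl, chromosome 6 (GRCm39 chr6:113600920-113608594, plus strand), encodes the substrate receptor of the ligase that recognises hydroxylated HIF-α. It was at 12.5 and 11.1 FPKM in Jak2WT GLUT1/3 WT, 9.78 and 9.50 in Jak2WT dKO, 12.8 and 12.4 in Jak2V617F GLUT1/3 WT, and 10.2 and 9.09 in Jak2V617F dKO. The 4 dKO clones were below the 4 GLUT1/3 WT clones. Vhl fell by 0.35 on the log2 scale in Jak2V617F dKO (SE 0.09, 1.27-fold lower, limma adjusted p = 0.0253), and the difference in Jak2WT was −0.26 (SE 0.09, limma adjusted p = 0.0931). Both dKO differences were of similar size, and their difference of −0.08 (95% interval −0.38 to 0.21) had a limma adjusted p = 0.702. The Jak2V617F call was lost without Jak2V617F GLUT1/3 WT clone 1 (adjusted p = 0.0994), Jak2V617F GLUT1/3 WT clone 3 (0.0668) or Jak2V617F dKO clone 3 (0.0914), and with scaling of the libraries to the same total (0.0747) the Jak2WT value passed instead (0.0432).

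Counted over the 6 tested genes, 1 fell and 0 rose in dKO against GLUT1/3 WT in Jak2WT, where 13.7% of all genes tested passed the limma threshold of an adjusted p of 0.05 and 6.06% fell. In Jak2V617F, 4 of the 6 fell and 0 rose, against 29.9% of all genes called and 16.2% called lower. The median log2 difference of the 6 was −0.13 in Jak2WT and −0.40 in Jak2V617F, against 0.01 and −0.02 over all genes tested. In the comparison of Jak2V617F with Jak2WT among GLUT1/3 WT clones, 1 of the 6 (Arnt) was higher, against 30.3% of genes called and 15.3% called higher, a share near the background. Among dKO clones 2 of the 6 (Egln1 and Hif1a) were lower, against 17.1% called and 9.96% called lower. The interaction was called for the same 2 genes, against 10.6% called and 5.91% called negative. The comparisons share libraries, so these counts are not independent. Scaling the libraries to the same total moved the median of all genes to −0.12 in Jak2V617F against Jak2WT among GLUT1/3 WT clones and to 0.12 in the interaction, and Arnt in the former was then at 0.19 (adjusted p = 0.221).

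**Figure D3:**
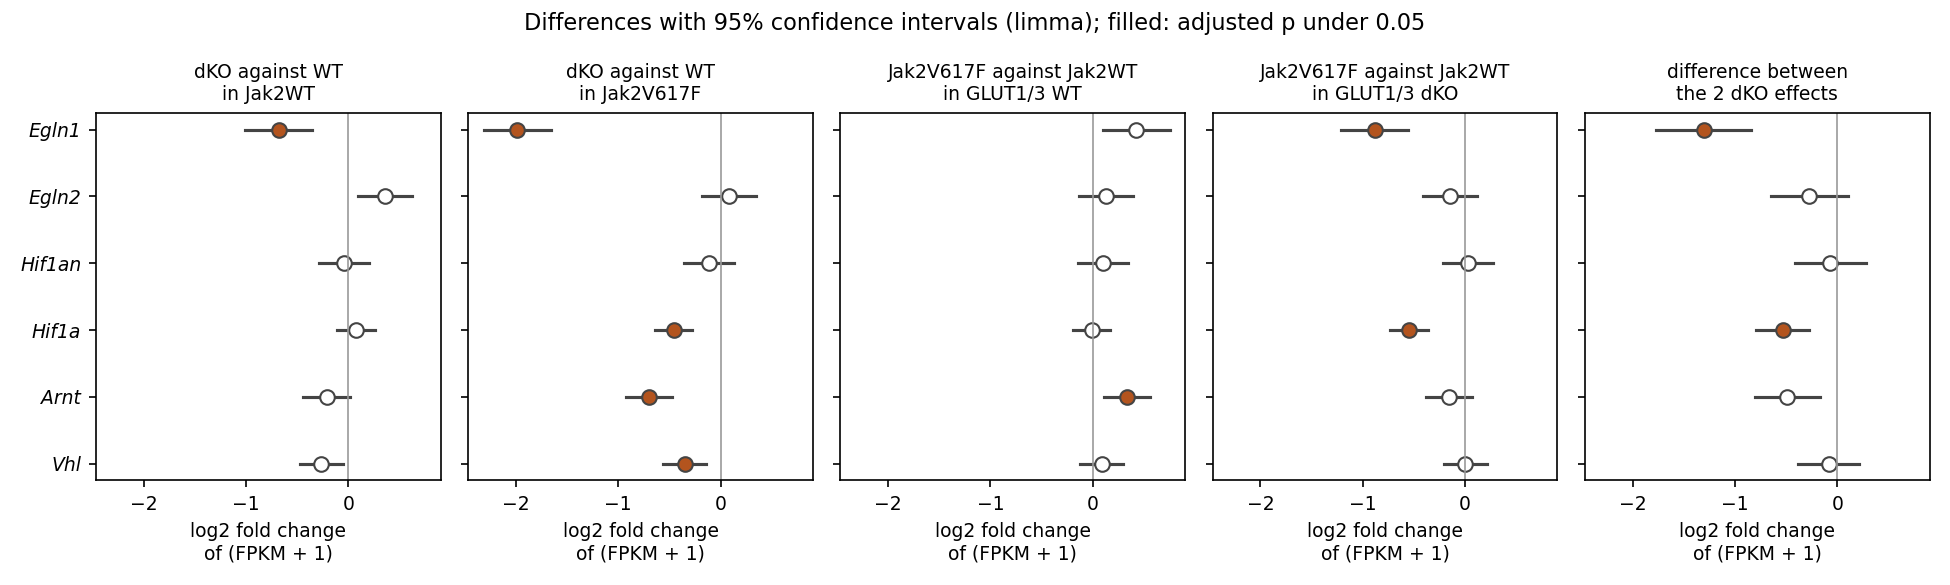
Log2 difference of FPKM + 1 (x axis) of the 6 expressed genes in the 5 comparisons, with 95% confidence intervals from limma; filled points had an adjusted p under 0.05. Egln1 was at −0.68 in Jak2WT dKO and at −1.99 in Jak2V617F dKO, and Hif1a at 0.08 and −0.46.

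Around Vhl, the ligase partners were tested as a list of 6 genes: Elob, Eloc, Cul2, Rbx1, Nedd8 and Ube2m. None passed the limma test in Jak2WT dKO, and in Jak2V617F dKO only Rbx1, the RING subunit, was called and rose by 0.32 (SE 0.09, limma adjusted p = 0.0310). Without the expression filter that call was lost. The list medians were −0.08 and −0.01, and with 13.7% and 29.9% of all genes called, these counts are not above the background. Nedd8, the ubiquitin-like modifier of the cullin, had the highest level of the list at 63.9 FPKM on average, and its log2 differences were −0.10 and −0.14.

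Of the 6 other HIF family genes and ARNT paralogues, only Arnt2 and Bmal1 reached the filter, and Bmal1, a clock gene and the most abundant of them at 1.80 FPKM on average, was not called in either dKO comparison. Arnt2, a paralogue that can also pair with HIF-α, was at 4.23 and 2.77 FPKM in the Jak2WT GLUT1/3 WT clones and at 0 to 0.182 in the 6 other libraries. It passed the filter only through the group in which it was high, so no test of it is given. Only in Jak2WT GLUT1/3 WT was Arnt2 thus above 1 FPKM, and there Arnt itself was the higher of the pair in both clones. Hif3a, which encodes another α subunit, was between 0.0226 and 0.699 FPKM and was not tested.

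Among the HIF coactivators and CITED inhibitors, 6 of 8 genes were tested. In Jak2V617F dKO 3 fell and 0 rose, with a list median of −0.29, and in Jak2WT dKO 2 fell and 0 rose, with a median of −0.35. Of all genes, 16.2% and 6.06% were called lower in these comparisons. With libraries scaled to the same total, 3 of the list fell in Jak2V617F dKO and 4 in Jak2WT dKO, and without the expression filter 3 and 1. Over all genes, 1452 and 1378 of 11818 were called lower with that scaling, and 1354 and 312 of 25788 without the filter. Ncoa2, a p160 coactivator, was at 51.4 ± 5.49 FPKM in Jak2V617F GLUT1/3 WT and 16.0 ± 0.790 in Jak2V617F dKO, and fell by 1.62 (SE 0.10, limma adjusted p = 0.000354). In Jak2WT it was at 10.8 ± 0.229 and 7.21 ± 0.419 FPKM and fell by 0.53 (SE 0.10, limma adjusted p = 0.0162), with an interaction of −1.09 (adjusted p = 0.00993 in limma). Pkm, the gene of pyruvate kinase M, whose M2 form can bind HIF-1α, had the highest level of the list at 677 FPKM on average and fell by 1.31 in Jak2V617F dKO and by 0.68 in Jak2WT dKO (limma adjusted p = 0.00126 and 0.0270). The histone acetyltransferase genes Ep300 and Crebbp were not called in either background, at −0.06 and 0.10 in Jak2V617F dKO, nor was Cited2, which competes with HIF-1α for p300, at −0.18. The 3 genes that fell in Jak2V617F dKO were Ncoa2, Pkm and Ncoa1 (−0.40, limma adjusted p = 0.0137), and the 2 that fell in Jak2WT dKO were Ncoa2 and Pkm.

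A list of 26 other oxygen-dependent hydroxylases and demethylases, which like the EGLN enzymes use oxygen as a substrate, had 21 tested genes. The background for its counts is the same 16.2% called lower in Jak2V617F dKO and 6.06% in Jak2WT dKO. In Jak2V617F dKO 14 fell and 1 rose in limma, with a median of −0.48, and in Jak2WT dKO 5 fell and 0 rose, with a median of −0.28. Among these, Plod1, a procollagen lysyl hydroxylase, was at 21.0 ± 0.563 FPKM in Jak2V617F GLUT1/3 WT and 5.72 ± 0.132 in dKO and fell by 1.71 (SE 0.08, limma adjusted p = 0.000306). P4ha1, a collagen prolyl hydroxylase subunit, fell by 1.54 (SE 0.10, limma adjusted p = 0.000360), and the histone demethylases Kdm3a and Kdm5b by 1.14 and 1.11 (limma adjusted p = 0.000409 and 0.000561). Plod1, P4ha1 and Kdm5b also had negative interactions, of −0.75, −1.20 and −0.63 (adjusted p = 0.0149, 0.00935 and 0.0328 in limma). The 5 genes that fell in Jak2WT dKO were Kdm4b, Plod1, Kdm3a, Kdm5b and Jmjd6, and all 5 also fell in Jak2V617F dKO. Kdm4b, another histone demethylase, fell in both backgrounds, by 1.07 in Jak2WT and 0.98 in Jak2V617F (limma adjusted p = 0.00136 and 0.000497), and its interaction was 0.09. Riox2, a ribosomal oxygenase, was the gene that rose (0.42, SE 0.11, limma adjusted p = 0.0256), and Alkbh5, an RNA demethylase and the most abundant of the list, fell by 0.55 in Jak2V617F dKO (limma adjusted p = 0.0110). The rise of Riox2 was not called without the expression filter. Scaled to the same total, the counts were 12 lower in Jak2V617F dKO and 11 lower in Jak2WT dKO. Of all 11818 genes tested, 1452 and 1378 were called lower with that scaling. Kdm3a and P4ha1 are also on the list of HIF-1 target genes.

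Of 18 tested genes from a list of other regulators of HIF protein, 8 fell and 3 rose in Jak2V617F dKO (limma, median −0.23), and 0 fell and 1, Morf4l2, rose in Jak2WT dKO (median −0.04), against 29.9% and 13.7% of all genes called. Those that rose in Jak2V617F dKO were Siah1b (0.89, SE 0.19), a gene of the SIAH family of E3 ubiquitin ligases, the SUMO protease gene Senp1 (0.46, SE 0.09) and the deubiquitinase gene Usp20 (0.30, SE 0.08), at limma adjusted p of 0.0128, 0.00946 and 0.0253. Other SIAH genes were lower, Siah1a by 0.38 and Siah2 by 0.36 (limma adjusted p = 0.0474 and 0.0494), and reads of the near-identical Siah1a and Siah1b may have been split between them. Os9 and Ubqln1 fell by 0.50 and 0.40 (limma adjusted p = 0.00493 and 0.0246). Rwdd3, counted among the 8, was at 1.19 to 1.49 FPKM in GLUT1/3 WT clones and 0.630 to 0.995 in dKO clones. It passed the filter only through the clones in which it was high, so no test of it is given. Scaled to the same total, 5 of the list fell and 5 rose in Jak2V617F dKO, with a median of −0.14. The balance of calls thus moved while the median stayed below 0. Of all 11818 genes tested, 1452 fell and 2192 rose with that scaling. Without the expression filter 3 of the list fell and 2 rose, against 1354 and 1244 of all 25788 genes. The chaperone gene Hsp90ab1, the most abundant of the list at 1642 FPKM on average, was not called, at −0.27 in Jak2V617F dKO.

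In the list of 17 enzymes that supply 2-oxoglutarate, the cosubstrate of the hydroxylases, or turn over the acids that compete with it, 5 were lower and 1 higher in Jak2V617F dKO (limma, median −0.16) and 2 lower and 0 higher in Jak2WT dKO (median −0.16). Against 29.9% and 13.7% of all genes called, these counts as deposited are near the background, and the genes named are given for their own values. The 2 lower genes in Jak2WT dKO were Idh1 and D2hgdh (−0.45, limma adjusted p = 0.0422). Idh1, the cytosolic isocitrate dehydrogenase, was at 12.7 ± 0.0549 FPKM in Jak2WT GLUT1/3 WT, 6.07 ± 1.20 in Jak2WT dKO, 7.65 ± 1.03 in Jak2V617F GLUT1/3 WT and 4.03 ± 0.293 in Jak2V617F dKO. It fell by 0.97 in Jak2WT dKO and 0.78 in Jak2V617F dKO (limma adjusted p = 0.00780 and 0.00586). Idh2, Got1, Sdha and Idh3g fell in Jak2V617F dKO by 0.61, 0.58, 0.50 and 0.33 (limma adjusted p = 0.00925, 0.00464, 0.0245 and 0.0136). Scaled to the same total, 5 of the list fell and 4 rose in Jak2V617F dKO, and 6 fell and 0 rose in Jak2WT dKO. Over all 11818 genes, 1452 fell and 2192 rose in Jak2V617F dKO with that scaling, and 1378 fell and 706 rose in Jak2WT dKO. Ogdh, a subunit of the complex that consumes 2-oxoglutarate, rose by 0.36 in Jak2V617F dKO (SE 0.09, limma adjusted p = 0.0269), a call lost without the expression filter. Sdhd, a membrane anchor of succinate dehydrogenase and the most abundant of the list at 122 FPKM on average, was at −0.25 in Jak2WT dKO and −0.16 in Jak2V617F dKO and was not called.

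Among the targets downstream, 24 of 28 tested HIF-1 target genes fell and 0 rose in Jak2V617F dKO in limma (median −1.23), and 17 fell and 0 rose in Jak2WT dKO (median −0.56), against 16.2% and 6.06% of all genes called lower. Scaled to the same total, 24 and 23 fell, and without the expression filter 23 and 9, so the difference between the counts depends on the settings. Over all genes, 1452 and 1378 of 11818 fell with that scaling, and 1354 and 312 of 25788 without the filter. The largest falls in Jak2V617F dKO were those of the mitophagy gene Bnip3 (−2.49), Ankrd37 (−2.33), the oxidoreductase gene Ero1a (−2.11) and Pdk1 (−1.90), the kinase gene that restrains pyruvate dehydrogenase, at limma adjusted p of 0.000360, 0.000336, 0.000860 and 0.000306. Pgk1, a glycolytic kinase gene and the most abundant of the list at 1117 FPKM on average, fell by 1.63 in Jak2V617F dKO and by 0.71 in Jak2WT dKO (limma adjusted p = 0.00103 and 0.0377). The fall of Egln1 in Jak2V617F dKO was larger than the list median, and that of Hif1a and Arnt was smaller. Of 13 genes favoured by HIF-2, 6 were tested, of which Vegfa fell by 0.86 and Tfrc rose by 0.79 in Jak2V617F dKO (limma adjusted p = 0.00131 and 0.0152, list median −0.01). In Jak2WT dKO, Vegfa was the single gene called and fell by 0.38 (limma adjusted p = 0.0428). Without the expression filter, the calls of Vegfa in Jak2WT dKO and of Tfrc in Jak2V617F dKO were lost. The most abundant gene of this list was Cited2, at 162 FPKM on average. Vegfa is also on the HIF-1 list, and Tfrc, the transferrin receptor gene, is also an erythroid marker.

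**Figure D4:**
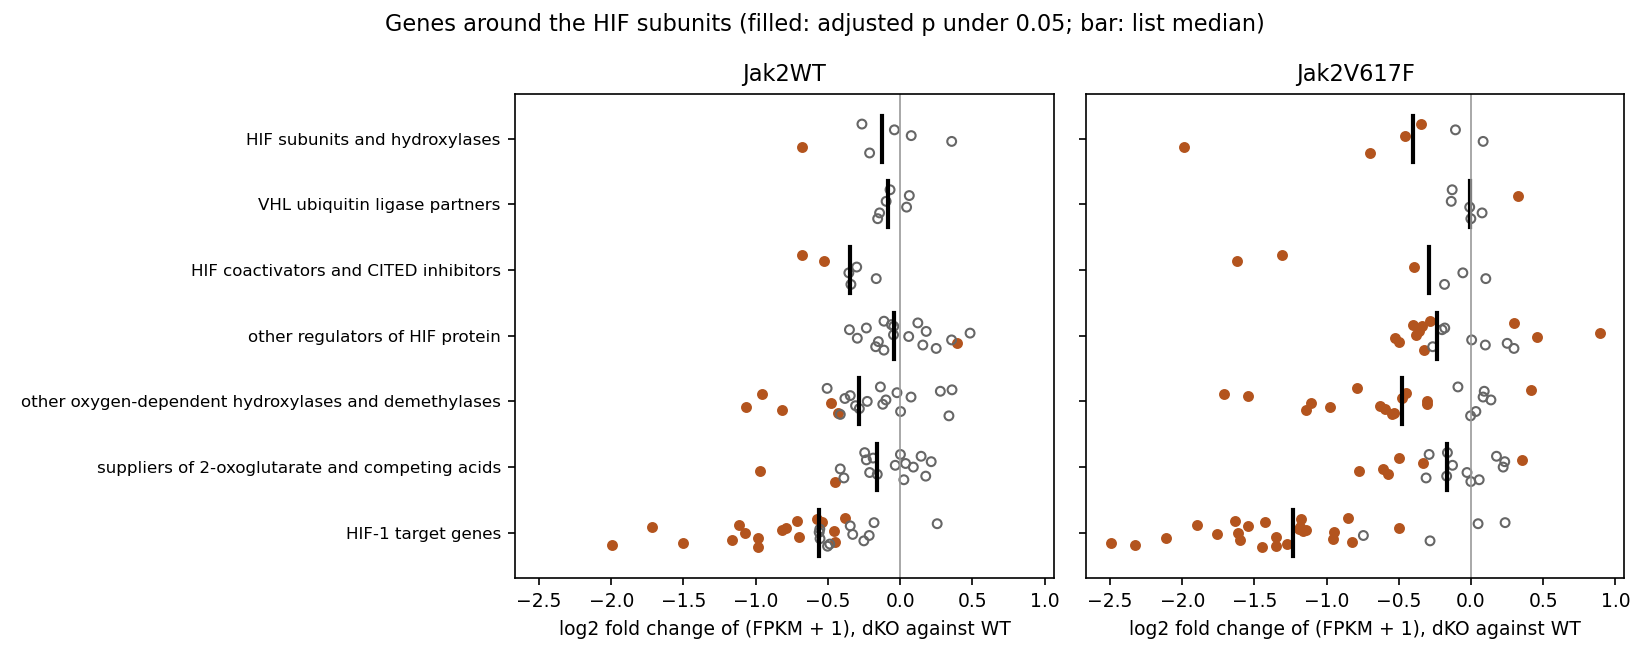
Log2 difference of FPKM + 1, dKO against GLUT1/3 WT (x axis), of each tested gene in 7 lists, in Jak2WT (left) and Jak2V617F (right); filled points had a limma adjusted p under 0.05 and bars mark list medians. In Jak2V617F dKO the list medians ran from −1.23 for HIF-1 target genes to −0.01 for the VHL ligase partners.

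The genes whose pattern over the 8 libraries was most like each member were found by Pearson's r on log2(FPKM + 1), as a description with no test, since the libraries share 4 group means. Egln1 was nearest to Pfkl (r = 0.997), the liver-type phosphofructokinase gene on the HIF-1 target list, followed by Hibadh (0.993) and Kcnq5 (0.993), and 375 of 11817 genes had an r above 0.9 with it. For Hif1a the nearest were Mblac1 (0.989), Snapc5 (0.988) and Lrp10 (0.984). Arnt was nearest to Gmppa (0.997), Wls (0.994) and Supt20 (0.987), and Vhl to Fam193a (0.984), Slc41a1 (0.980) and Pals1 (0.977). Egln2 and Hif1an had fewer such neighbours, 25 and 12 genes above 0.9, led by Otulin (0.973), Usp16 (0.950) and Chrac1 (0.950) for Egln2 and by Paip2b (0.973), Ctnnb1 (0.963) and Lars2 (0.943) for Hif1an. No gene appeared among the first 3 of more than 1 member.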

How the data were processed

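RNA sequencing (paired reads of 150 bases, poly(A) capture) covered 8 libraries in 4 groups of 2 clones. Per the labels and the study's methods, the authors trimmed reads with fastp 1.0.1, aligned them to mm39 with HISAT2 2.2.1, counted them per gene with featureCounts 2.0.6 and deposited FPKM, with no counts used here. The annotation version, the strand setting and the library total behind FPKM are not given in the sources used here. Every deposited FPKM times gene length was a whole multiple of 1 step per library (tolerance 0.01), which gave back read counts. These were used for depth, intervals and 1 alternative.

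The 11818 genes that reached 1 FPKM in 2 or more libraries were tested with limma 3.58.1 (R 4.3.3) on log2(FPKM + 1), with 4 group means, a trended prior (residual df 4, prior df 3.34) and Benjamini-Hochberg adjustment over all of them. Fold changes are on this scale, which understates changes of low genes. Shares and ratios within a library were compared by two-sided exact permutation tests in scipy 1.17.1 (Python 3.11.15). Labels were permuted over all 8 libraries, so the groups pooled on each side were not kept apart. The code was tested on simulated data.

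The members and the lists around them were chosen with earlier results of these data known. Named from each list, apart from items that are not reported here, were the genes past the threshold with the largest changes in the dKO comparisons, at most 4 in each direction, and the most abundant gene. Ep300, Crebbp, Siah2, Jmjd6, Idh3g, Hif3a and the markers were named outside this rule, after their values had been seen. Alternatives were another pseudocount (0.1), no expression filter, a filter on mean FPKM, no trend in the prior, scaling to the same total or by median ratio, voom on the recovered reads, the clone number as a block, only the groups compared, and leaving out each library.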

Additional observations from a re-analysis of the deposited data

Results flagged for a closer look

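For 2 genes the effect of GLUT1/3 dKO differed between the Jak2V617F and Jak2WT backgrounds by the interaction term in limma. Egln1 differed by −1.31 on the log2 scale (adjusted p = 0.0152) and Hif1a by −0.54 (adjusted p = 0.0291). With 2 clones in each group, no clone could be examined for standing apart from its group.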

How the results depend on the processing

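The falls of Egln1, Hif1a and Arnt in Jak2V617F dKO passed the threshold in every alternative run, with limma adjusted p of 0.0000119 to 0.0120 for Egln1, 0.00432 to 0.0431 for Hif1a and 0.00151 to 0.0268 for Arnt with all libraries. Leaving out 1 library gave 3 to 4 members called there, 0 to 2 in Jak2WT dKO, 0 to 1 for Jak2V617F against Jak2WT among GLUT1/3 WT clones, 1 to 2 among dKO clones and 0 to 3 for the interaction. A group left with 1 clone is then assumed to vary like the others. Over all genes, 110 to 1974, 2131 to 2985, 1583 to 3969, 620 to 1992 and 5 to 1256 were called for Jak2WT dKO, Jak2V617F dKO, the GLUT1/3 WT and dKO clones between backgrounds, and the interaction.

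Without the expression filter, which tests 25788 genes, 0 members and 714 genes were called in Jak2WT dKO, 0 members among GLUT1/3 WT clones, and 0 members and 346 genes for the interaction. Egln1 was then at limma adjusted p of 0.0774 in Jak2WT dKO and 0.0533 for the interaction, Hif1a at 0.0501 for the interaction, Arnt at 0.0788 among GLUT1/3 WT clones and Vhl at 0.0516 in Jak2V617F dKO. Scaled to the same total, the counts of members were 2 in Jak2WT dKO, 0 among GLUT1/3 WT clones and 1 for the interaction, where Hif1a was at 0.0503. With voom, 2 members and 2605 genes were called in Jak2WT dKO, 0 members among GLUT1/3 WT clones (Arnt at 0.114) and 1896 genes for the interaction, and Vhl was at 0.0338 in Jak2WT dKO and 0.0784 in Jak2V617F dKO. With only the groups compared, 1617 genes were called in Jak2V617F dKO, with Vhl at 0.0917, and 1028 between backgrounds among dKO clones. The causes were not tested.

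Values that changed sign were all below the threshold. Scaled to the same total, Hif1a was at −0.019 in Jak2WT dKO. Among GLUT1/3 WT clones, Vhl, Egln2 and Hif1an were at −0.057, −0.013 and −0.047, and in the interaction Vhl and Hif1an were at 0.094 and 0.11. With voom, Vhl and Hif1an were at −0.037 and −0.0076 among GLUT1/3 WT clones and at 0.095 and 0.096 in the interaction. On leaving out 1 library, Egln2 ran from −0.051 to 0.22 and Hif1an from −0.23 to 0.017 in Jak2V617F dKO, and Hif1an from −0.12 to 0.040 in Jak2WT dKO. Among GLUT1/3 WT clones Hif1a ran from −0.052 to 0.029. Among dKO clones Hif1an ran from −0.10 to 0.15 and Vhl from −0.076 to 0.080, and Hif1an in the interaction from −0.19 to 0.057.

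Scaling also moved the split of all calls. In Jak2WT dKO, 901 genes were higher and 716 lower as deposited, against 706 and 1378 scaled to the same total. The splits were 1614 and 1919 against 2192 and 1452 in Jak2V617F dKO, 1812 and 1765 against 1223 and 2930 among GLUT1/3 WT clones, 842 and 1177 against 977 and 1087 among dKO clones, and 558 and 698 against 1177 and 393 for the interaction. The members called were lower in both for all comparisons but that among GLUT1/3 WT clones.

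Same-numbered clones did not deviate together (correlations of −0.25 to 0.15 between groups), so the numbers do not pair them. The fit with the clone number as a replicate block called 1, 4, 1, 2 and 2 members and 1323, 3226, 3355, 1769 and 956 genes in the 5 comparisons. In that fit Arnt lost its call among GLUT1/3 WT clones (limma adjusted p = 0.0521) and Egln1 gained one there (0.0274). Leaving out 1 library, the Egln1 share differed between dKO and GLUT1/3 WT by −24.5 to −19.8 percentage points and between backgrounds by −10.4 to 0.226. The log2 ratio of Hif1a to Arnt ran from 0.21 to 0.42 and from −0.49 to −0.30, and that of Egln1 to Hif1a from −1.26 to −1.06 and from −0.26 to 0.33, all without a test. Epas1 and Egln3, with 0 to 4 reads per library, were too low to test. The effect of depth on the other members was not tested.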
